A study of Chlamydomonas reinhardtii with 25 samples.

Results

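The genes described here are the carbonic anhydrases CAH1 to CAH8 of the green alga Chlamydomonas reinhardtii. They were taken by a list of 8 gene identifiers, and 7 of the 8 (CAH1 to CAH7) matched a transcript in the deposited count table of 19526 transcripts exactly. The identifier of CAH8, Cre09g405750, is not itself listed. A single transcript, Cre09g4057501, starts with those digits, and it is given as the CAH8-stem transcript and kept out of every count over the 7 members. The table gives identifiers without gene names, so the names come from the list by which the genes were chosen.

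Carbonic anhydrases are zinc enzymes that interconvert CO2 and bicarbonate. In Chlamydomonas they work with bicarbonate transporters in the carbon-concentrating mechanism, which raises CO2 around Rubisco and is switched on when CO2 is scarce. The members sit in different places. CAH1 and CAH2 are alpha-type enzymes of the periplasm, CAH1 being the classic enzyme induced by low CO2 and CAH2 the form favoured at high CO2. CAH3 is an alpha-type enzyme of the thylakoid lumen. CAH4 and CAH5 are beta-type mitochondrial enzymes, nearly identical to each other in protein sequence and induced by low CO2. CAH6 is a beta-type enzyme first placed in the chloroplast stroma and later linked to flagella, CAH7 is a beta-type enzyme whose place is less certain, and CAH8 is a beta-type enzyme of the cell surface.

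Wild-type strain CC-125 was grown to mid-exponential phase at 20 °C with 12 h of light a day in diluted TAP, an acetate-containing medium. After washing, cells spent 2 h in a buffer of NaHEPES (10.0 mM, pH 7.0) and calcium nitrate (10.0 µM), containing cerium (Ce), thulium (Tm), yttrium (Y) or an equimolar mixture of all 3 (Mix), each labelled 0.5 µM, or no added metal (Control). Each of the 5 groups has 5 libraries of polyA RNA, 25 in all. For Mix it is not stated if 0.5 µM refers to each metal or to their sum. Nor do the labels say how CO2 was supplied, or whether the 5 libraries of a group came from separate cultures, so p-values measure the spread between these samples. Because the RNA is from whole cultures, a transcript lowered in every cell cannot be told apart from one lowered in only some cells.

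Libraries held 12921000 (Tm library 2) to 28974000 (Control library 2) counts. Levels are given as CPM, counts relative to library totals that were scaled by TMM factors, which correct for differences in the make-up of the libraries. These factors averaged 1.43 ± 0.03 in Ce, 0.93 ± 0.02 in Tm, 0.96 ± 0.03 in Y, 0.92 ± 0.04 in Mix and 0.86 ± 0.18 in Control (SD, n = 5 each). Control library 1 stood apart, with a factor of 1.161 against 0.6943 to 0.8893 in the other Control libraries, so results that move without it are given both ways. The scaling matters most for Ce: the median log2 change of all tested transcripts, Ce minus Control, was 0.22 with TMM factors and 0.95 with library totals alone. Tests are edgeR quasi-likelihood tests over 12796 transcripts that passed a filter on low counts, called at an adjusted p under 0.05. All 7 members and the CAH8-stem transcript passed that filter. The 4 comparisons with Control share the same 5 Control libraries.

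**Figure D1:**
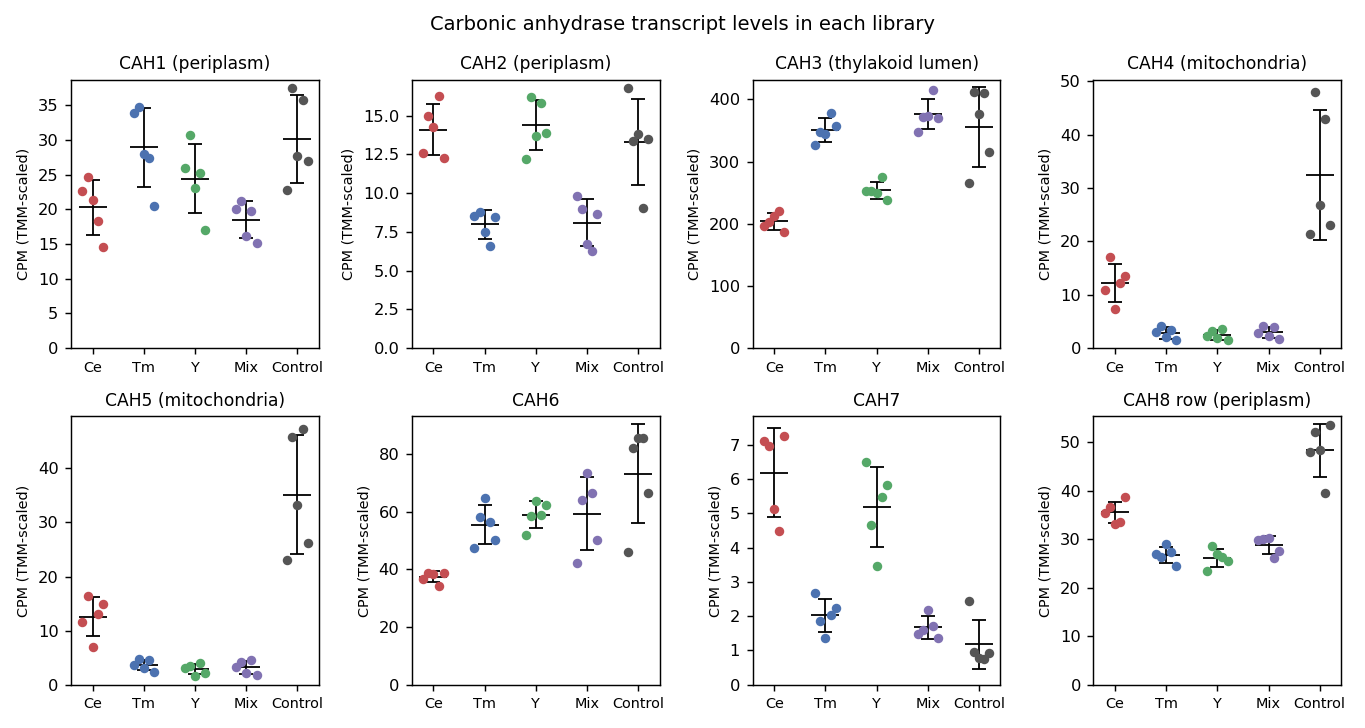
Transcript level of each carbonic anhydrase (vertical axes, CPM over TMM-scaled totals, each starting at 0) in the 5 groups; points are the 5 libraries of a group and black marks the mean with its SD. CAH4 and CAH5 lie between 1.45 and 4.69 CPM in the Tm, Y and Mix libraries and between 21.4 and 48.0 CPM in Control, and CAH7 is above every Control library in Ce and Y.

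The mitochondrial forms fell furthest. CAH4 (Cre05g248400) and CAH5 (Cre05g248450) fell in all 4 exposures, by about an order of magnitude in Tm, Y and Mix and by less in Ce. CAH4 stood at 10.9, 17.0, 7.28, 12.3 and 13.6 CPM in Ce libraries 1 to 5, and at 3.03, 4.12, 2.04, 3.49 and 1.45 CPM in the Tm libraries. It stood at 2.21, 3.21, 1.82, 3.61 and 1.45 CPM in Y and at 2.92, 4.07, 2.19, 3.95 and 1.75 CPM in Mix, against 21.4, 48.0, 26.9, 43.0 and 23.1 CPM in Control. Every exposed library was below every Control library, every Ce library was above every Tm, Y and Mix library, and those last 3 groups overlapped. CAH5 repeated the order: 11.6, 16.4, 6.91, 13.0 and 14.9 CPM in Ce, 3.71, 4.69, 3.12, 4.58 and 2.41 CPM in Tm, 3.19, 3.47, 1.7, 3.95 and 2.09 CPM in Y, 3.32, 4.23, 2.25, 4.67 and 1.8 CPM in Mix, and 23.1, 45.7, 33.2, 47.3 and 26.2 CPM in Control. Again no exposed library reached the Control range and Ce lay between Control and the other 3 groups without overlap.

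The CAH4 log2 change was -1.40 ± 0.26 under Ce, -3.54 ± 0.30 under Tm, -3.70 ± 0.30 under Y and -3.44 ± 0.30 under Mix relative to Control (± SE; adjusted p 2.14e-05, 2.37e-11, 6.69e-12 and 3.21e-11 by edgeR). In linear terms CAH4 was 2.65-fold lower in Ce and 11.7-fold lower in Tm than in Control. For CAH5 the log2 changes were -1.48 ± 0.25 under Ce, -3.26 ± 0.28 under Tm, -3.59 ± 0.28 under Y and -3.42 ± 0.28 under Mix (adjusted p 4.11e-06, 2.04e-11, 2.38e-12 and 8.46e-12). Both calls in all 4 exposures held in each of 37 other settings, and without Control library 1 the CAH4 changes were -1.53, -3.67, -3.82 and -3.56 in Ce, Tm, Y and Mix. Among all tested transcripts, the changes of CAH4 and CAH5 lay at the 0.907 and 1.52 percentiles in Tm, the 1.8 and 2.06 percentiles in Y and the 0.711 and 0.735 percentiles in Mix, where the lowest percentiles are the largest falls. In Ce they lay at the 16.6 and 15.6 percentiles.

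CAH4 and CAH5 are neighbours, with 0 genes between them on chromosome 5 of the reference annotation (assembly Chlamydomonas_reinhardtii_v5.5). Their sequences are so alike that reads may be shared or assigned to the wrong copy, and the counting method is not given in the sources used here, so their separate values are uncertain. The count of CAH4 per count of CAH5 was 0.979 ± 0.063 in Ce, 0.743 ± 0.114 in Tm, 0.861 ± 0.163 in Y, 0.926 ± 0.0604 in Mix and 0.915 ± 0.0875 in Control (SD, n = 5 each). The ratio in each exposure overlapped that in Control. Within groups the pair also rose and sank together: libraries 2 and 4 were the highest for both genes in Tm, Y, Mix and Control, and libraries 2 and 5 in Ce.

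**Figure D2:**
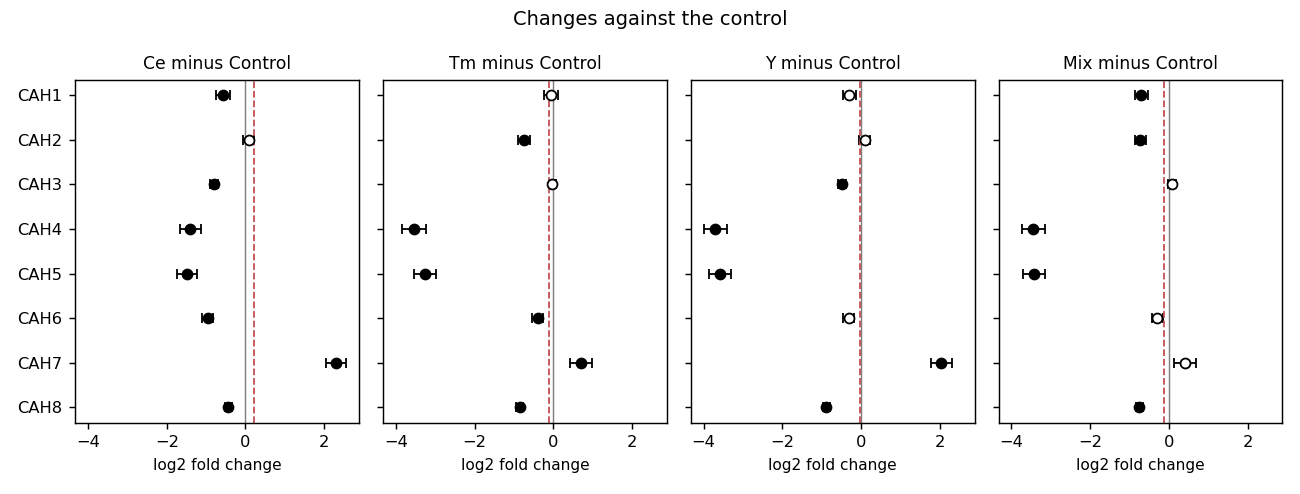
Log2 fold change against Control of each carbonic anhydrase (points, with SE as bars) in the 4 exposures; filled points passed an adjusted p of 0.05 (edgeR), open points did not, and the dashed red line is the median of all tested transcripts. CAH4 and CAH5 are at -3.26 or lower in Tm, Y and Mix and at -1.40 and -1.48 in Ce, while CAH7 is at 2.30 in Ce and 2.04 in Y.

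The periplasmic pair did not follow the mitochondrial forms, and its 2 genes were not called lower in all the same exposures. Whether their changes differed from each other was not tested. CAH1 (Cre04g223100) was lower in Ce and Mix. CAH2 (Cre04g223050) was lower in Tm and Mix. CAH1 stood at 22.6, 24.7, 21.3, 18.3 and 14.5 CPM in Ce, 33.8, 34.7, 28.0, 27.4 and 20.4 CPM in Tm, 26.0, 30.7, 23.1, 25.2 and 17.0 CPM in Y, 20.1, 21.2, 16.2, 19.7 and 15.2 CPM in Mix, and 22.7, 37.5, 27.7, 35.7 and 26.9 CPM in Control. The Mix libraries were all below Control, and those of Ce, Tm and Y overlapped it. Library 2 was the highest for CAH1 in all 5 groups and library 5 the lowest in each of the 4 exposures, while in Control the lowest was library 1.

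The CAH1 log2 change was -0.57 ± 0.17 in Ce and -0.70 ± 0.17 in Mix relative to Control (adjusted p 0.00306 and 0.000606, edgeR), but with library totals alone the Ce value turned to 0.20 (adjusted p 0.256). The Mix value was -0.43 without Tm library 2, the library to which the TMM factors are scaled, and -0.79 without Control library 1, and stayed called. In Tm it was -0.06 (adjusted p 0.766) and in Y -0.30 (adjusted p 0.109). The Y change of CAH1 was called without Y library 2 (-0.39, adjusted p 0.0487) and without Control library 1 (-0.39, adjusted p 0.0366).

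CAH2 stood at 12.6, 15.0, 14.3, 16.3 and 12.3 CPM in Ce, 8.54, 8.81, 7.5, 6.62 and 8.49 CPM in Tm, 12.2, 16.2, 13.7, 15.8 and 13.9 CPM in Y, 9.84, 8.97, 6.75, 6.28 and 8.64 CPM in Mix, and 16.8, 13.4, 13.8, 9.06 and 13.5 CPM in Control. Every Tm library was below Control, while Mix overlapped it through Control library 4 (9.06 CPM), and Ce and Y lay within the Control range. The log2 change was -0.74 ± 0.15 in Tm (adjusted p 6.6e-05) and -0.72 ± 0.15 in Mix (adjusted p 8.72e-05, edgeR). It was 0.08 in Ce (adjusted p 0.612) and 0.10 in Y (adjusted p 0.518). With library totals alone the Ce value of CAH2 was 0.77 and called higher (adjusted p 0.000971). CAH1 and CAH2 also adjoin, with 0 genes between them on chromosome 4 of the reference, and as close copies of each other they may share reads. The CAH1 count per CAH2 count was 1.45 ± 0.29 in Ce, 3.64 ± 0.704 in Tm, 1.71 ± 0.342 in Y, 2.34 ± 0.517 in Mix and 2.42 ± 0.991 in Control, each exposure overlapping Control.

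The CAH8-stem transcript stood at 35.4, 36.7, 33.1, 33.6 and 38.6 CPM in Ce, 26.9, 26.3, 29.0, 27.3 and 24.5 CPM in Tm, 23.4, 28.5, 27.0, 26.3 and 25.6 CPM in Y, 29.8, 30.0, 30.2, 26.2 and 27.6 CPM in Mix, and 47.9, 52.0, 48.3, 39.5 and 53.6 CPM in Control. All exposed libraries were below all Control libraries, and Ce lay between Control and the overlapping Tm, Y and Mix, the same order as for CAH4 and CAH5. Its log2 changes were -0.44 ± 0.09 under Ce, -0.85 ± 0.09 under Tm, -0.88 ± 0.09 under Y and -0.75 ± 0.09 under Mix (adjusted p 6.7e-05, 2.93e-09, 1.02e-09 and 3.12e-08, edgeR). The Ce value turned to 0.28, called higher, with library totals alone (adjusted p 0.0415). Whether this transcript is all of CAH8 cannot be read from the table.

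CAH3 (Cre09g415700), the thylakoid lumen enzyme that acts beside photosystem II, was lower in Ce and Y. With the main scaling it was close to Control in Tm and Mix. It stood at 197, 203, 212, 221 and 187 CPM in Ce, 326, 348, 345, 379 and 358 CPM in Tm, 252, 253, 250, 276 and 239 CPM in Y, 348, 372, 373, 415 and 370 CPM in Mix, and 265, 412, 376, 410 and 315 CPM in Control. Ce was below every library of the other 4 groups. Y was below every Tm and Mix library and overlapped Control through Control library 1 (265 CPM), which was the lowest of its group.

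The CAH3 log2 change was -0.80 ± 0.10 in Ce (adjusted p 2.71e-08) and -0.49 ± 0.10 in Y (adjusted p 7.09e-05, edgeR). With library totals alone the Ce value was -0.03 (adjusted p 0.58). In Tm it was -0.02 (adjusted p 0.874) and in Mix 0.08 (adjusted p 0.483). Those 2 values depended on the library used to scale the rest: scaled to Control library 1 they were 0.20 (adjusted p 0.0279) and 0.35 (adjusted p 0.000461), and without Tm library 2 they were 0.22 and 0.35 (adjusted p 0.028 and 0.000571), all called higher. Leaving out transcripts with damaged text in a count cell, which made Control library 1 the scaling library, gave 0.21 and 0.35. Both were again called higher (adjusted p 0.0283 and 0.000503, edgeR). Without Control library 1 the Tm and Mix values were -0.11 and -0.01.

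CAH6 (Cre12g485050) was lower in Ce. It stood at 36.8, 38.9, 38.4, 34.4 and 38.9 CPM in Ce, 47.5, 58.3, 64.7, 56.4 and 50.3 CPM in Tm, 51.9, 58.4, 63.9, 58.8 and 62.3 CPM in Y, 42.3, 64.2, 73.5, 66.5 and 50.3 CPM in Mix, and 45.9, 82.0, 85.5, 85.7 and 66.7 CPM in Control. The Ce libraries were tightly grouped below all others, and the other 3 exposures overlapped Control, whose library 1 was the lowest of its group. The log2 change was -0.96 ± 0.14 in Ce (adjusted p 8.21e-07, edgeR), and -0.18 with library totals alone (adjusted p 0.121). In Tm it was -0.40 ± 0.14 (adjusted p 0.0161), a call lost without Tm library 1 (-0.34, adjusted p 0.0521), Tm library 2 (-0.17, adjusted p 0.28) or Control library 3 (-0.34, adjusted p 0.052). It was also lost with library totals alone (-0.23, adjusted p 0.0602), scaled to Control library 1 (-0.17, adjusted p 0.245), without damaged transcripts (-0.17, adjusted p 0.248), with limma-voom (-0.36, adjusted p 0.0749) and with only the groups compared (-0.38, adjusted p 0.0613). Without Control library 1 the Tm value of CAH6 was -0.53 and stayed called (adjusted p 0.000292). The log2 change was -0.31 in Y (adjusted p 0.0564) and -0.30 in Mix (adjusted p 0.0661). Without Control library 1 the Y and Mix values of CAH6 were -0.44 and -0.43 and called (adjusted p 0.00173 and 0.00226), as they were without Mix library 1 for Y (-0.30, adjusted p 0.0442) and without Mix library 3 for Mix (-0.38, adjusted p 0.027). The Y value of CAH6 was also called with DESeq2 size factors (-0.37, adjusted p 0.0325), DESeq2's test (-0.37, adjusted p 0.0315) and upper-quartile factors (-0.33, adjusted p 0.0211).

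CAH7 (Cre13g607350) moved in the opposite direction. It rose in Ce and Y. It stood at 7.11, 6.95, 5.12, 4.47 and 7.26 CPM in Ce, 2.68, 1.86, 1.36, 2.04 and 2.23 CPM in Tm, 6.48, 4.67, 3.45, 5.46 and 5.82 CPM in Y, 1.49, 1.6, 2.19, 1.71 and 1.35 CPM in Mix, and 2.45, 0.963, 0.791, 0.762 and 0.939 CPM in Control. Control library 1 was far above the other Control libraries, yet every Ce and Y library lay above it. Ce and Y overlapped each other, and both lay above every Tm and Mix library. CAH7 had few reads where it was low, 9 to 62 counts a library in Control and 123 to 254 in Ce.

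The CAH7 log2 change was 2.30 ± 0.26 in Ce (adjusted p 4.5e-09) and 2.04 ± 0.26 in Y (adjusted p 5.34e-08, edgeR), at the 95.0 and 93.7 percentiles of all tested transcripts. Without Control library 1 these values were 2.81 and 2.55. Leaving out that library moved the value by a like amount in all 4 exposures, but the call in Mix only. In Mix the value was 0.40 (adjusted p 0.203) with it and 0.91 (adjusted p 0.00296) without it. In Tm it was 0.70 ± 0.28 (adjusted p 0.0275) with it and 1.21 (adjusted p 0.000145) without it, and that call was lost without Tm library 1 (0.57) or without Control library 2, 3, 4 or 5 (0.61, 0.60, 0.59 and 0.62). It was also lost with upper-quartile factors (0.64), library totals alone (0.73), limma-voom (0.77) and only the groups compared (0.74).

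Counted over the 7 members, 1 was called higher and 5 lower in Ce relative to Control, where 44.9% of all tested transcripts were called higher and 36.2% lower. In Tm 1 was higher and 4 lower, against 32.2% and 37.7% of all transcripts. In Y 1 was higher and 3 lower, against 35.9% and 36.7%, and in Mix 0 were higher and 4 lower, against 30.9% and 37.5%. With so much of the transcriptome called, these counts say little by themselves. The median log2 change of the 7 was -0.80 under Ce, -0.40 under Tm, -0.31 under Y and -0.70 under Mix, beside 0.22, -0.10, -0.02 and -0.13 for all tested transcripts. A test for any difference among the 5 groups called all 7 members, as it did 96.1% of all transcripts, with adjusted p between 0.000813 for CAH1 and 4.47e-14 for CAH5.

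Ratios between members counted in the same library need no scaling between libraries. For every 100 counts of thylakoid CAH3 there were 12.3 ± 3.86 counts of mitochondrial CAH4 and CAH5 together in Ce, 1.86 ± 0.574 in Tm, 2.08 ± 0.626 in Y, 1.65 ± 0.554 in Mix and 18.6 ± 3.46 in Control (SD, n = 5 each). Tm, Y and Mix were below every Control library on this ratio, and Ce overlapped Control. For CAH7 there were 3.07 ± 0.81 counts per 100 of CAH3 in Ce, 0.582 ± 0.158 in Tm, 2.04 ± 0.479 in Y, 0.444 ± 0.0843 in Mix and 0.37 ± 0.312 in Control. Here Ce and Y were above every Control library, and Tm and Mix overlapped Control. For CAH1 the ratio was 9.95 ± 1.93 in Ce, 8.28 ± 1.94 in Tm, 9.58 ± 1.85 in Y, 4.93 ± 0.766 in Mix and 8.45 ± 0.656 in Control, with only Mix clear of Control.

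**Figure D3:**
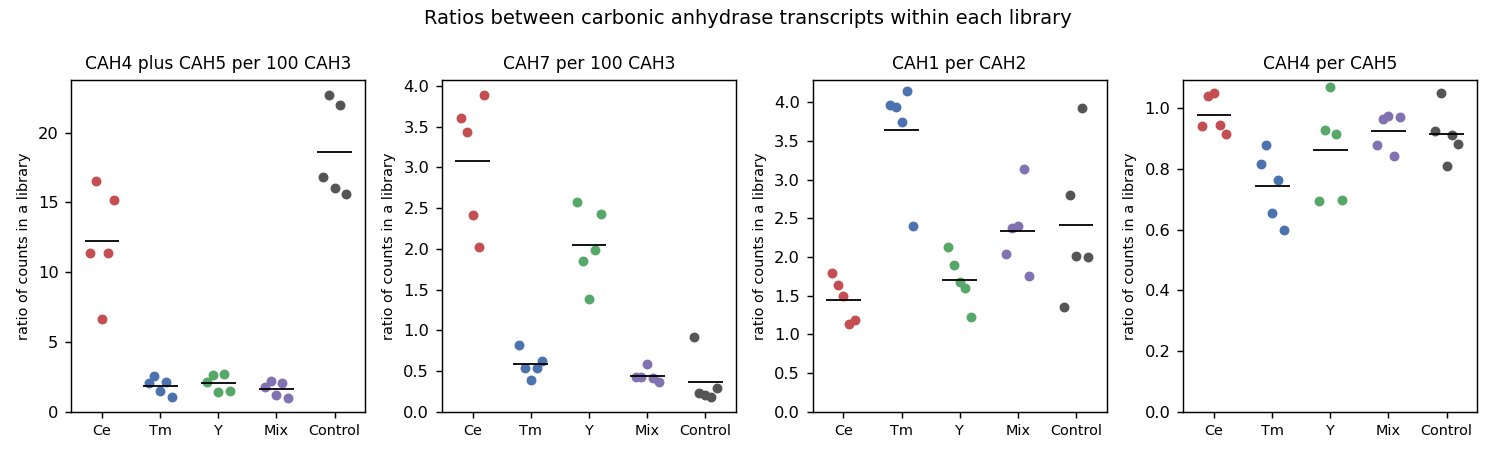
Ratios of the counts of 2 carbonic anhydrases in the same library (vertical axes, each starting at 0) in the 5 groups; points are libraries and lines are means. CAH4 plus CAH5 per 100 CAH3 is at most 2.74 in Tm, Y and Mix and at least 15.6 in Control, CAH7 per 100 CAH3 is highest in Ce and Y, and CAH1 per CAH2 and CAH4 per CAH5 overlap Control in every exposure.

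As shares of the counts of the 7 members, which depend on transcript length and so compare groups but not genes, the mitochondrial forms took 8.08% ± 2.28 in Ce, 1.44% ± 0.425 in Tm, 1.46% ± 0.438 in Y, 1.32% ± 0.432 in Mix and 12.2% ± 2.06 in Control. All 4 exposures were below every Control library. The thylakoid form took 66.5% ± 2.8 in Ce, 77.7% ± 2.16 in Tm, 70.1% ± 1.1 in Y, 80.1% ± 1.86 in Mix and 65.9% ± 1.13 in Control, with Tm, Y and Mix above every Control library and Ce overlapping it. Shares are parts of a single total, so a smaller mitochondrial share raises the others without a rise in their levels. With the main scaling the CAH3 level was lower than Control in Y (log2 change -0.49) and near it in Tm and Mix (-0.02 and 0.08). The periplasmic CAH1 and CAH2 took 11.2% ± 1.18 in Ce, 8.18% ± 1.49 in Tm, 10.7% ± 1.32 in Y, 5.7% ± 0.929 in Mix and 8.17% ± 1.14 in Control, with only Mix below every Control library.

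The exposures differed from each other in 3 ways. CAH4 and CAH5 separated Ce from the other exposures: the log2 difference of CAH4 was 2.14 ± 0.30 for Ce minus Tm, 2.29 ± 0.29 for Ce minus Y and -2.04 ± 0.29 for Mix minus Ce (adjusted p 2.57e-07, 9.13e-08 and 3.81e-07, edgeR). For CAH5 these differences were 1.78 ± 0.27, 2.11 ± 0.27 and -1.95 ± 0.27 (adjusted p 1.09e-06, 9.58e-08 and 2.39e-07). CAH2 and CAH7 separated Ce and Y from Tm and Mix. CAH2 differed by 0.82 ± 0.15 for Ce minus Tm, -0.85 ± 0.15 for Tm minus Y, -0.80 ± 0.15 for Mix minus Ce and -0.83 ± 0.15 for Mix minus Y (adjusted p 1.26e-05, 0.000199, 1.51e-05 and 8.14e-05). CAH7 differed by 1.60 ± 0.24, -1.34 ± 0.25, -1.89 ± 0.25 and -1.64 ± 0.25 in the same 4 comparisons (adjusted p 1.33e-06, 0.000398, 9.56e-08 and 1.36e-05). Neither CAH2 (-0.03, adjusted p 0.878) nor CAH7 (0.26, adjusted p 0.309) differed past the threshold between Ce and Y, although with library totals alone both did (0.54 and 0.82, adjusted p 0.0162 and 0.011).

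CAH3 set Tm and Mix above Y and Y above Ce. Its log2 difference was -0.78 ± 0.10 for Ce minus Tm, 0.47 ± 0.10 for Tm minus Y, 0.88 ± 0.10 for Mix minus Ce and 0.57 ± 0.10 for Mix minus Y (adjusted p 5.79e-08, 0.00133, 6.86e-09 and 6.64e-05, edgeR). The Ce minus Y difference of CAH3 was -0.32 ± 0.10 (adjusted p 0.00529), but -0.09 with upper-quartile factors (adjusted p 0.265) and 0.25 with library totals alone. CAH6 was lower in Ce than in the others: its log2 difference was -0.57 ± 0.14 for Ce minus Tm, -0.66 ± 0.14 for Ce minus Y and 0.66 ± 0.14 for Mix minus Ce (adjusted p 0.000895, 0.0002 and 0.000153), values that became 0.05, -0.09 and 0.02 with library totals alone. The CAH8-stem transcript differed by 0.41 ± 0.09 for Ce minus Tm, 0.44 ± 0.09 for Ce minus Y and -0.30 ± 0.09 for Mix minus Ce (adjusted p 0.000247, 9.92e-05 and 0.00358). Its first and last calls were lost without Tm library 2 (0.19 and -0.06) or damaged transcripts (0.21 and -0.06), and the last also when scaled to Control library 1 (-0.07) or by DESeq2 size factors (-0.19).

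**Figure D4:**
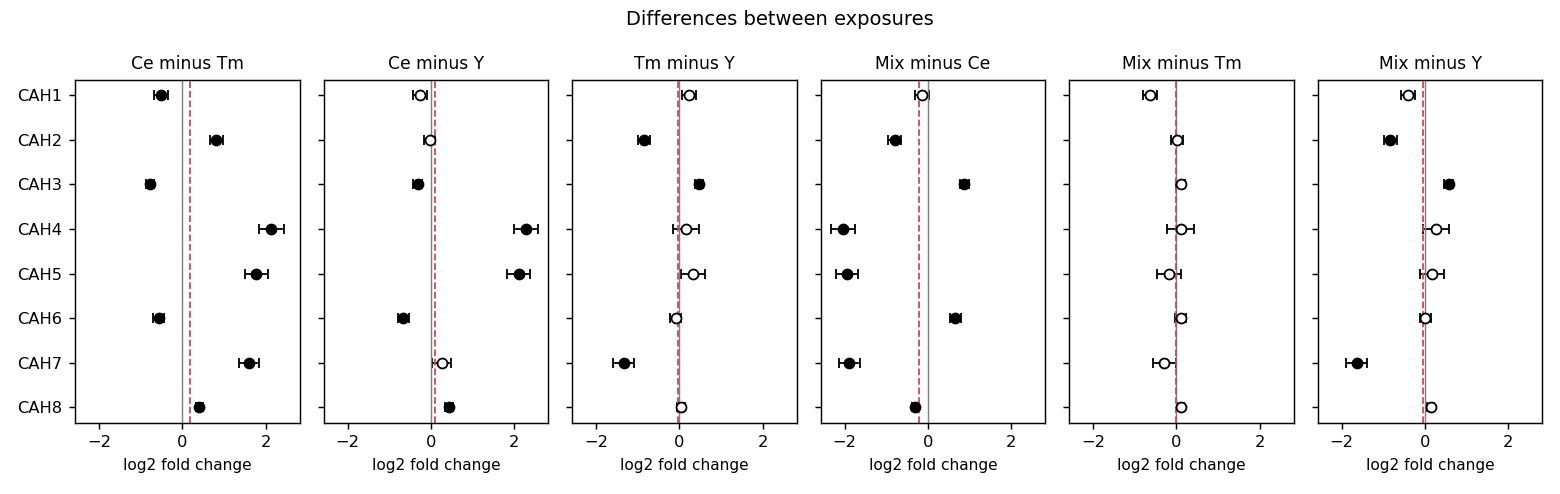
Log2 difference between pairs of exposures (horizontal axes, first named minus second) for each carbonic anhydrase, with SE as bars; filled points passed an adjusted p of 0.05 (edgeR) and the dashed red line is the median of all tested transcripts. No gene is filled in Mix minus Tm, and CAH4 and CAH5 are past the threshold only in the 3 comparisons with Ce.

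Of the 7 members, 4 were higher and 3 lower in Ce relative to Tm (42.4% and 34.2% of all transcripts), and 2 were higher and 2 lower in Ce relative to Y (39.6% and 34.2%). In Tm relative to Y 1 was higher and 2 were lower (9.75% and 11.0%), and in Mix relative to Ce 2 were higher and 4 lower (33.9% and 44.9%). In Mix relative to Y 1 was higher and 2 were lower (16.3% and 19.2%).

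Of the 6 comparisons between exposures, Mix minus Tm had the fewest members called. In it edgeR called 0 of the 7 members, with 0.195% of all transcripts called higher and 0.977% lower. At an unadjusted p under 0.05 there was 1, CAH1, lower in Mix with a log2 difference of -0.64 ± 0.17 (adjusted p 0.0572), and DESeq2 called it (-0.62, adjusted p 0.0342). All 5 Mix libraries of CAH1 were below the Tm mean, and the groups overlapped. Tm and Mix libraries of the same number deviated together across transcripts. With the replicate number as a block over the libraries of all groups, the CAH1 difference was -0.63 (adjusted p 0.00141, edgeR). That block also covers groups where the number was not taken as a pairing, so it is not a paired test of Tm and Mix alone. The same block moved CAH1 in Ce minus Y to -0.26 (adjusted p 0.0373), against -0.27 (adjusted p 0.153) without it. The Mix minus Tm value was also called without Ce, Tm or Y library 5, Control library 1 or Control library 4 (adjusted p 0.0452, 0.0224, 0.0419, 0.025 and 0.0399). CAH1 differed by -0.51 ± 0.17 for Ce minus Tm (adjusted p 0.00774), which became -0.31 with upper-quartile factors (adjusted p 0.0729) and 0.11 with library totals alone, and by -0.40 ± 0.17 for Mix minus Y (adjusted p 0.064). The Mix minus Y difference of CAH1 was called with only the groups compared (-0.41, adjusted p 0.0266), with library totals alone (-0.47, adjusted p 0.0304), without Y library 5 (-0.51, adjusted p 0.0232) and without Control library 1 (-0.40, adjusted p 0.0415). Its Ce minus Y difference was -0.37 and called scaled to Control library 1, without damaged transcripts, without Tm library 2 and without Y library 5. For CAH4, CAH5 and CAH7 the Mix minus Tm differences were 0.10 ± 0.32, -0.17 ± 0.29 and -0.29 ± 0.27, so differences of moderate size in these low-count genes are not excluded by the data.

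Set against the mean of the 3 single metals on the log2 scale, Mix was higher for CAH3 (0.52 ± 0.08, adjusted p 6.15e-06) and lower for CAH2 (-0.54 ± 0.12, adjusted p 0.000762) and CAH7 (-1.28 ± 0.22, adjusted p 3.19e-05, edgeR). CAH1 (-0.39 ± 0.14, adjusted p 0.0209) and CAH5 (-0.65 ± 0.24, adjusted p 0.0218) were also called lower, and both calls were lost without Tm library 2 (-0.23 and -0.48), Mix library 3 (-0.35 and -0.55) or Mix library 5 (-0.33 and -0.49), and when scaled to Control library 1 (-0.25 and -0.51, adjusted p 0.109 and 0.067) or without damaged transcripts (-0.25 and -0.51). The CAH1 call was also lost with DESeq2 size factors (-0.31, adjusted p 0.0608) and DESeq2's test (-0.31, adjusted p 0.0557). CAH4 (-0.56 ± 0.25, adjusted p 0.0644) and CAH6 (0.26 ± 0.12, adjusted p 0.0624) were not called, but each was in several other settings. That made 1 of the 7 members higher and 4 lower, where 25.2% of all transcripts were higher and 28.7% lower. For all 7 members, the Mix libraries overlapped the pooled libraries of the single metals. That pool joins groups that differ among themselves, and the share of all transcripts that overlap was not computed, so this overlap says little.

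Other genes of the carbon-concentrating mechanism were taken as a list of 17 identifiers, of which 11 were in the table and 10 were tested. The list was chosen with earlier results of these data known, so its counts are no test against the share of all transcripts. In Ce, Tm and Y relative to Control all 10 were called lower, and in Mix 9 were, with median log2 changes of -2.02, -1.86, -2.47 and -1.54. Over all tested transcripts 36.2% were called lower under Ce, 37.7% under Tm, 36.7% under Y and 37.5% under Mix, and the medians were 0.22, -0.10, -0.02 and -0.13. In the other settings 8 to 10 were lower in Ce, 9 or 10 in Tm and Mix, and 10 in Y. The largest falls by identifier were Cre16g663400 in Ce (0.118 CPM in Ce, 1.44 CPM in Control, log2 change -3.55 ± 0.36), Cre04g223300 in Tm (3.33 CPM in Tm, 45.3 CPM in Control, -3.78 ± 0.31) and in Mix (3.29 CPM in Mix, -3.78 ± 0.30), and Cre02g097800 in Y (457 CPM in Y, 7390 CPM in Control, -4.02 ± 0.25). Cre16g663400 is near the floor, with 241 counts on 2 transcripts over all libraries, and its mean was highest in Control. It may have passed the filter mainly through Control, so its fall and its place among the 10 carry little weight. Cre02g097800, the next largest fall in Ce, stood at 888 CPM in Ce (-3.06 ± 0.24). The table gives these identifiers no names.

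A second list, chosen with the same knowledge and so under the same limit, holds 3 identifiers of gamma-type, carbonic anhydrase-like genes. This class is tied to complex I in plant mitochondria. All 3 were called higher in each exposure, with median log2 changes of 1.21 under Ce, 0.62 under Tm, 0.88 under Y and 0.65 under Mix beside the all-transcript medians above. Over all tested transcripts 44.9% were called higher under Ce, 32.2% under Tm, 35.9% under Y and 30.9% under Mix. In Mix 2 of the 3 were called with library totals alone, with upper-quartile factors, with only the groups compared or without Mix library 1. The largest rise was that of Cre06g293850 in Ce (50.7 CPM in Ce, 18.6 CPM in Control, log2 change 1.43 ± 0.16) and of Cre12g516450 in Tm, Y and Mix (50.3, 49.6 and 46.4 CPM, against 22.4 CPM in Control, log2 changes 1.16, 1.14 and 1.05). These 3 genes moved opposite to the mitochondrial CAH4 and CAH5 in the same libraries.

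**Figure D5:**
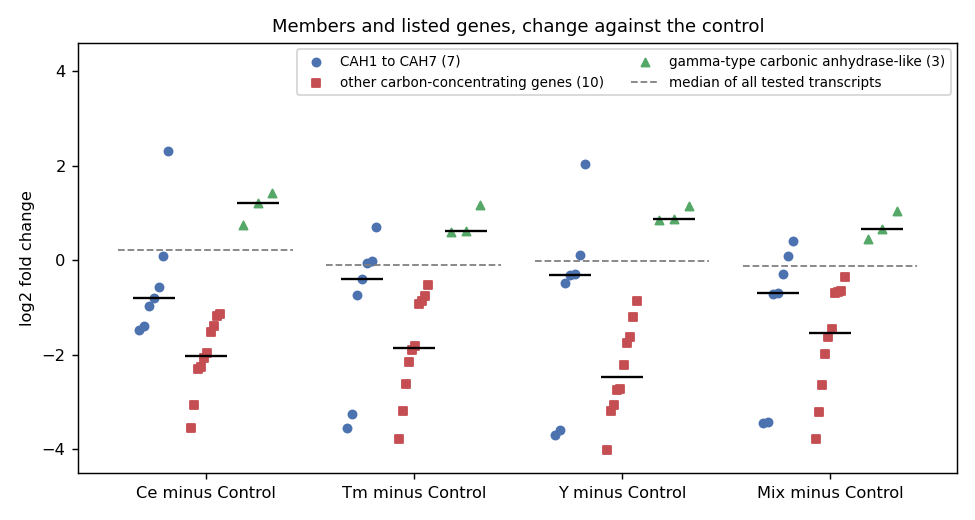
Log2 fold change against Control (vertical axis) of CAH1 to CAH7, of 10 other carbon-concentrating genes and of 3 gamma-type carbonic anhydrase-like genes in the 4 exposures; points are genes, black lines are medians and the dashed line is the median of all tested transcripts. The carbon-concentrating genes are below 0 throughout, the gamma-type genes above 0, and CAH1 to CAH7 spread to both sides.

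Likeness of pattern was measured as Pearson's r of log2 CPM over the 25 libraries, which share group, depth and scaling, among 10313 transcripts with a mean of at least 1 CPM. CAH4 and CAH5 were each other's closest transcript (r = 0.992). Next came Cre10g466500 for CAH4 (r = 0.968) and Cre03g162800, one of the listed carbon-concentrating genes, for CAH5 (r = 0.979). The 2 closest were Cre14g628100 and Cre11g469450 for CAH2 (0.916 and 0.899), g3755 and Cre15g634750 for CAH3 (0.973 and 0.971), Cre09g387000 and g5168 for CAH6 (0.935 and 0.923), and g15723 and Cre01g005950 for CAH7 (0.926 and 0.925). For the CAH8-stem transcript they were Cre09g407700 and Cre04g221550 (0.955 and 0.952). CAH1 had the least alike neighbours, Cre07g315650 and g4446 (0.764 and 0.703). By Spearman's rank correlation the 2 closest were other transcripts for CAH3 (Cre12g552550 and Cre02g111550), CAH7 (Cre02g113200 and g2835) and the CAH8-stem transcript (Cre17g712400 and Cre11g481150). They were the same for CAH2 and CAH5, and the same in part for CAH1, CAH4 and CAH6. Among the members themselves, r was 0.91 between CAH4 and the CAH8-stem transcript, 0.72 between CAH3 and CAH6, 0.35 between CAH1 and CAH4, 0.04 between CAH1 and CAH2, and -0.88 between CAH3 and CAH7.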

How the data were processed

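PolyA RNA of 25 libraries (5 groups of 5) was sequenced as paired reads of 100 bases with a stranded kit on 2 lanes, per the labels' protocols. The labels do not give each library's lane. The submitters' processing notes name Trim Galore 0.3.7, TopHat2 2.0.14 and SAMtools 1.2. No source used here gives the counting program, its strand setting or the genome build. The authors deposited raw counts per transcript, and 34 cells held damaged text. The stray text was removed and the digits left in those cells entered the main counts. A separate setting left the damaged transcripts out. None of the cells belongs to a member. The members and gene lists were chosen with earlier results of these data known.

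Counts were filtered with filterByExpr, scaled by TMM to Tm library 2 and fitted with edgeR 4.0.16 in R 4.3.3 (quasi-likelihood, 1 coefficient per group over all libraries, Benjamini-Hochberg over 12796 transcripts). The procedure was run on simulated data for Ce minus Control only. Equal numbers of transcripts were raised and lowered there, so that run did not test the scaling between libraries. DESeq2 1.42.0, limma 3.58.1, other scalings and each library left out were tried. All members were named, with the 2 transcripts most alike in pattern and the largest rise and fall in each list. Levels per kilobase were planned, but no transcript lengths were at hand, so levels of different genes are not compared. Libraries within a group differed beyond counting error in every pair. For Ce with Y and Tm with Mix, all 5 same-numbered pairs of libraries correlated (r of 0.111 to 0.188 and 0.193 to 0.44), so the block was taken as a pairing there, from the data and not the labels. For Ce with Tm these correlations were 0.083 to 0.226, and the block was not taken as a pairing. The block was fitted over all 5 groups together, and no fit paired only Ce with Y or only Tm with Mix.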

Additional observations from a re-analysis of the deposited data

Results flagged for a closer look

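In 40 sets of 5 libraries (8 transcripts in 5 groups), 1 held a library far from the rest of its group: CAH7 in Control, where library 1 stood at 2.45 CPM and the other 4 libraries between 0.762 and 0.963 CPM. Chance alone marks about 1 set in 20. The same library had the lowest level of its group for CAH1, CAH3, CAH4, CAH5 and CAH6 and the highest for CAH2. The part of this library in the CAH7 results is given by the values without it: 2.81 under Ce, 1.21 under Tm, 2.55 under Y and 0.91 under Mix relative to Control on the log2 scale.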

How the results depend on the processing

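Of 77 changes tested over the 7 members, 47 were called, and 35 of these were called in every one of 37 other settings, 25 of which left out 1 library. For the CAH8-stem transcript 7 of 11 were called, and 4 of these in every setting. The 35 include all calls of CAH4 and CAH5 against Control and of CAH7 in Ce and Y. Library totals alone changed more member values than any other setting, and moved the share of calls that were higher in Ce minus Control to 75.1% against 55.3%. The same scaling moved that share to 76.1% against 55.3% in Ce minus Tm, 75.4% against 53.7% in Ce minus Y, 23.9% against 43.0% in Mix minus Ce and 26.9% against 46.8% in Mix minus the mean of single metals. TMM scaled to Control library 1 moved it to 56.3% against 45.1% in Mix minus Control, 70.4% against 46.9% in Tm minus Y and 67.4% against 45.9% in Mix minus Y. The cause of these changes was not tested. Low counts limit CAH4, CAH5 and CAH7. Levels per kilobase were not run.

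Log2 values that changed sign, most of them not called, were as follows. With DESeq2 size factors CAH2 in Ce minus Control was -0.0049 and the CAH8-stem transcript in Mix minus the mean of single metals 0.05, and with DESeq2's own test -0.01 and 0.05. With upper-quartile factors CAH2 in Ce minus Y was 0.20, without a filter 0.01. With library totals alone Ce minus Control was 0.20 for CAH1 and 0.28 for CAH8-stem, Tm minus Control 0.09 for CAH1 and 0.13 for CAH3, Ce minus Tm 0.11 for CAH1 and 0.05 for CAH6, Ce minus Y 0.30, 0.54 and 0.25 for CAH1, CAH2 and CAH3, Tm minus Y -0.02 for CAH8-stem and Mix minus Y -0.07 for CAH6. Scaled to Control library 1, Tm minus Control was 0.16 for CAH1 and 0.20 for CAH3, Tm minus Y 0.01 for CAH6, Mix minus Ce 0.11 for CAH1 and Mix minus the mean 0.12 for CAH8-stem. Leaving out transcripts with damaged cells, which made Control library 1 the scaling library, gave 0.16, 0.21, 0.0032, 0.11 and 0.12 for the same 5, and with Tm library 2 kept for scaling, chosen after seeing the data, none of them changed sign. With limma-voom CAH3 in Tm minus Control was 0.0041 and CAH6 in Mix minus Y -0.02. With only the groups compared CAH3 in Tm minus Control was 0.0024 and CAH2 in Ce minus Y 0.0041. With the replicate block CAH6 in Mix minus Y was -0.01.

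Counts of the 7 members called moved by over 1.5 times as follows. In Tm minus Control, higher, the count of 1 became 0 with upper-quartile factors, limma-voom or only the groups compared, and 2 when scaled to Control library 1 or without damaged transcripts. In Mix minus Control, higher, 0 became 1 with library totals, Control library 1 scaling or damaged transcripts left out. With library totals Ce minus Control had 2 higher and 2 lower, Ce minus Tm 1 lower, Ce minus Y 5 higher and 0 lower, and Mix minus Ce 1 higher. Ce minus Y had 1 lower with upper-quartile factors. Mix minus Tm had 1 lower with upper-quartile factors, library totals, DESeq2's test, only the groups compared or the replicate block. Mix minus the mean had 2 higher with DESeq2 size factors or test, limma-voom, only the groups compared, the block, Control library 1 scaling or damaged transcripts left out, and 2 lower in the last 2. The block gave 5 lower in Y minus Control, adding CAH1 (-0.32) and CAH6 (-0.28). It also called CAH6 in Mix minus Control (-0.30, adjusted p 0.0164) and CAH1 in Mix minus Y (-0.39, adjusted p 0.00843). Outside Ce with Y and Tm with Mix the number was not taken as a pairing, with correlations of same-numbered pairs between -0.134 and 0.558. Those groups were not all alike. Each Ce and Tm library correlated best with its own number in the other group, as in the 2 pairings taken, and Ce and Control libraries mostly did not. Whether the number marks a shared batch was not tested.

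Leaving out 1 library at a time, values that changed sign ranged over -0.15 to 0.10 for CAH1 and -0.11 to 0.22 for CAH3 in Tm minus Control, -0.03 to 0.18 for CAH2 in Ce minus Control, -0.0014 to 0.20 for CAH2 in Y minus Control, -0.01 to 0.35 for CAH3 in Mix minus Control, -0.13 to 0.02 for CAH2 in Ce minus Y, -0.0022 to 0.15 for CAH8-stem in Tm minus Y, -0.23 to 0.11 for CAH1 in Mix minus Ce, -0.06 to 0.10 for CAH2 and -0.06 to 0.30 for CAH4 in Mix minus Tm, -0.0046 to 0.32 for CAH5 and -0.08 to 0.15 for CAH6 in Mix minus Y, and -0.04 to 0.11 for CAH8-stem in Mix minus the mean. Counts ranged over 0 to 2 higher in Tm minus Control, 0 to 1 higher in Mix minus Control, 3 to 5 lower in Y minus Control, 0 to 1 lower in Mix minus Tm, and 1 to 2 higher and 2 to 5 lower in Mix minus the mean.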
